A study of Mus musculus with 34 samples.

Results

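Semaphorins are ligands that steer growing axons and migrating cells, and plexins and neuropilins are the receptors that read them. Of the 20141 named genes with a probe on the array, 31 belong to this group: 20 semaphorins, 9 plexins and the 2 neuropilins. They were found by matching the RefSeq accession of each probe to the gene's symbol, with no use of the measured values, and all 31 had a probe, 39 probes in all.

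Most secreted class 3 semaphorins bind a neuropilin, which passes the signal on through a class A plexin, whereas Sema3e can act on Plxnd1 without a neuropilin. Membrane-bound semaphorins of classes 4 to 7 bind plexins directly, among them Sema4d with Plxnb1, Sema5a with Plxnb3, Sema6b with Plxna4 and Sema7a with Plxnc1. In the brain of the newborn mouse these pairs act on axon tracts, migrating interneurons, dendrites and vessels, mostly by repulsion.

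The tissue was whole brain of male C57BL/6J mice aged 3 days, with no genetic change or treatment. One brain was cut into 15 coronal fractions, another into 8 horizontal fractions and the last into 11 sagittal fractions, each fraction being 500 μm of tissue in 100 slices of 5 μm except sagittal fractions 1 and 11, which each pool 2 cut fractions. A fraction had 1 single-colour array and no replicate, so a plane cannot be told apart from its mouse, and each test asks whether values follow position within 1 mouse. A value is the log2 processed signal of a probe minus the log2 75th percentile of its array, and a fold is 2 to the power of a difference of such values.

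The arrays had between 29598 and 37091 of 59305 spots well above background and lay on 5 slides. Coronal fractions 1 to 8 lay on one slide and the others on another, except fraction 12, so slide and position are largely confounded in that plane. Which side of the brain holds fraction 1 is not given in the labels. Hindbrain markers peaked most often in coronal fraction 2, cerebral cortex markers in fraction 13 and olfactory bulb markers in fraction 15. In the horizontal plane striatum markers peaked most often in fraction 6 and hypothalamus markers in fraction 8, and in the sagittal plane cortex markers did so in fraction 1 and hypothalamus markers in fraction 6. All 5 neuron markers were well above background on every array. In such bulk tissue, fewer cells of a type and less RNA per cell cannot be told apart.

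Of the 39 probes of the group, 37 were well above background on all 34 arrays. Sema3g, a ligand of Nrp2, was well above background on 6 of 15 coronal, 1 of 8 horizontal and 4 of 11 sagittal arrays, and its values elsewhere were not well above background. Among the chosen probes, 1 for each gene, the median gene spanned 1.28 log2 units from its lowest to its highest coronal fraction, against 1.17 for all 34186 probes tested. The corresponding spans were 0.91 against 0.79 in the horizontal plane and 0.72 against 0.71 in the sagittal plane. The widest coronal spans among genes well above background throughout were 2.85 for Plxnb3, 2.80 for Sema3c and 2.48 for Plxnd1, and the narrowest was 0.54 for Sema6d.

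**Figure D1:**
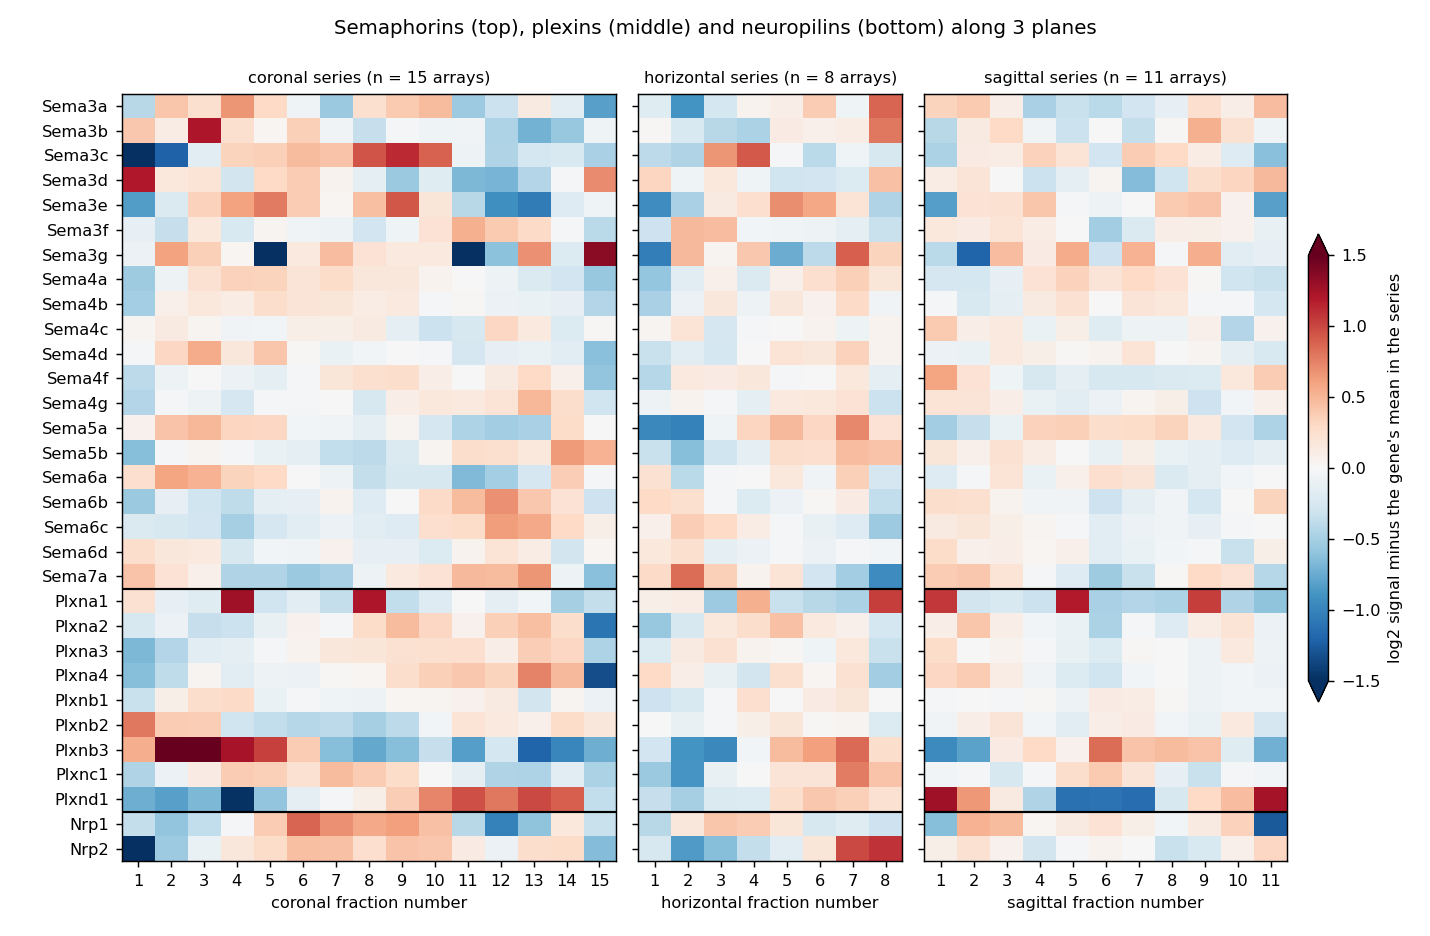
Log2 signal of the 31 genes (rows, grouped as semaphorins, plexins and neuropilins) in the 15 coronal, 8 horizontal and 11 sagittal fractions (columns), each minus the gene's mean in that series. Red is above and blue below the mean, with the colour limited at 1.5 log2 units; Plxnd1 is red at both ends of the sagittal series, Plxnb3 is red in low coronal fractions, and the isolated red cells of Plxna1 lie on arrays of a single column of the slides.

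The members with the smallest adjusted p in the coronal slope, the horizontal slope and the sagittal distance test were Plxnb3, Sema5b and Plxnd1. The 250 bases before their starts are shown so that the sequence beside these patterns can be read, though the horizontal slope of Sema5b lay close to the threshold. They are RefSeq sequences of GRCm38.p6, for Plxnb3 chrX:73756853-73757102 on the plus strand, for Sema5b chr16:35541112-35541361 on the plus strand and for Plxnd1 chr6:115995006-115995255 on the minus strand. Capitals mark matches, on either strand, to any of 5 short motifs. The GC box, which Sp1 and its relatives bind, was searched as GGGCGG. The CCAAT box was searched by the letters of its name, and the TATA box, which places the start of transcription in some genes, as TATAAA. The E-box form favoured by many neural bHLH factors was searched as CAGCTG. The motif of SOX factors, a family that includes regulators of glia, was searched as ACAAAG.
Plxnb3: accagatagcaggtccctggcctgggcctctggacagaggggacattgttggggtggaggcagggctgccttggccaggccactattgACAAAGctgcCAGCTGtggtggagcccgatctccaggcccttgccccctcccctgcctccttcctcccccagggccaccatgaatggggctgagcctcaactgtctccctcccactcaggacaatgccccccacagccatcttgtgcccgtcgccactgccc
Sema5b: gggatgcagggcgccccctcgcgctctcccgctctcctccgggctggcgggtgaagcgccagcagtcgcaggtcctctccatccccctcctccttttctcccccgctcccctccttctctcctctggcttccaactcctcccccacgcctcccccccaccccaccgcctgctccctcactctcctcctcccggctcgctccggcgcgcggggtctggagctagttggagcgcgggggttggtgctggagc
Plxnd1: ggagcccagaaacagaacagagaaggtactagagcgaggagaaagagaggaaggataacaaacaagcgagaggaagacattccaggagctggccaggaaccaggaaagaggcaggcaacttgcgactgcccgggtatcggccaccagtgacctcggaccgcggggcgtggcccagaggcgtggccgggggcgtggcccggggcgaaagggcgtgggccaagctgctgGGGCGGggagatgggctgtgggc
The Plxnb3 window held a SOX motif and an E-box, which did not overlap, the Plxnd1 window held a GC box and the Sema5b window held none of the 5. Over the 37 promoters of the 26 members listed in the RefSeq table, 73.0% held a GC box, against 32.7% of all 32851 promoters. A SOX motif was in 13.5% against 16.5%, an E-box in 16.2% against 13.0% and a CCAAT box in 18.9% against 33.8%. None held a TATA box, which was in 12.4% of all. The median GC content of the members' promoters was 64.0%, against 52.4% for all. Plxna1, Plxna4, Sema3b, Sema3f and Sema6a were not listed. A match of letters is a description of these windows and says nothing of binding.

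Ligands and receptors overlapped in position along every plane. The signal-weighted mean fraction is the mean of the fraction numbers weighted by linear signal, and even signal would give 8.00 in the coronal plane. Its median was 7.89 over the ligands, with a range from 6.97 for Sema3b to 8.78 for Sema6c. Over the plexins it was 7.93, from 5.57 for Plxnb3 to 9.58 for Plxnd1. The other plexins lay between 7.44 for Plxna1 and 8.55 for Plxna4, within the range of the ligands. Nrp1 stood at 7.85 and Nrp2 at 8.35. In the horizontal plane, where even signal gives 4.5, the medians were 4.54 for ligands and 4.68 for plexins. Ligands there ranged from 3.82 for Sema7a to 5.15 for Sema5a, and plexins from 4.34 for Plxna4 to 5.21 for Plxnb3. For distance from sagittal fraction 6, where even signal gives 2.73, both medians were 2.79. Ligands there ranged from 2.41 to 3.04 and plexins from 2.23 for Plxnb3 to 3.59 for Plxnd1. These positions are descriptions and were not tested.

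By highest fraction, 9 of the coronal ligands had their peak in fractions 1 to 5 and 9 in fractions 11 to 15. Only Sema3c and Sema3e peaked in between, both in fraction 9. Of the 9 plexins, 4 peaked in fractions 1 to 5 (among them Plxna1, whose peak is on an array of the slide column described with that gene), 2 in fractions 6 to 10 and 3 in fractions 11 to 15, the last being Plxna3, Plxna4 and Plxnd1, all in fraction 13. Both neuropilins peaked in coronal fraction 6. In the horizontal plane 11 of the 20 ligands peaked in fractions 7 and 8 and 6 in fractions 1 and 2. The peak of 5 of the 9 plexins was in horizontal fractions 3 to 6. These counts are descriptions, and the shares of all probes with a peak in those fractions are not given. They include genes with no slope or curve called, such as Sema3f, Sema3g, Sema4c, Sema4g and Sema6d.

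Along the coronal plane, 7 of the 31 genes changed with fraction number (limma slope, adjusted p under 0.05), where 28.3% of all probes tested did, 18.9% rising and 9.44% falling. Sema5b, Sema6b, Sema6c and Plxnd1 rose, and Sema3b, Sema4d and Plxnb3 fell. The median size of the slope was 0.037 log2 units per fraction over the members and 0.030 over all probes. A curve free to bend was called in 22 of the 31 genes, where 60.4% of all probes were called. With the slide as a block 0 slopes and 13 curves of members were called, where 0.734% and 36.7% of all probes were. Slide and position cannot be told apart over most of this axis. Without fraction 15 alone 15 slopes of members were called, where 28.0% of all probes were. Without both end fractions 1 and 15, a setting chosen after seeing the data, 15 were called as well, where 33.4% of all probes were. In that setting Sema5b was lost (0.04, adjusted p = 0.097) and 9 genes were added. Of these Sema4g, Plxna2, Plxna3 and Plxna4 rose by 0.041, 0.057, 0.052 and 0.072 log2 units per fraction, and Sema3d, Sema4a, Sema4b, Sema5a and Sema6a fell, with slopes from -0.067 for Sema6a to -0.024 for Sema4b.

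Plxnd1, the receptor of Sema3e that is known from vessels and from axon targeting, had coronal values with a lowest of 2.46, a median of 3.93 and a highest of 4.94. The 5 fractions from 10 to 14 were all at or above 4.67, and the 5 fractions from 1 to 5 were all at or below 3.35. Its slope was 0.13 log2 units per fraction (SE 0.029, adjusted p = 0.0040), and its other probe gave 0.13 (SE 0.029, adjusted p = 0.0045). Fraction 15 dropped back to 3.58. Within the slide of fractions 1 to 8 the slope was 0.15, and within that of fractions 9 to 15 it turned to -0.07, neither passing the threshold.

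Among the 31 genes, Plxnd1 had the smallest adjusted p for sagittal distance. Its values had a lowest of 3.30, a median of 4.58 and a highest of 5.72. The outermost fractions 1 and 11 stood at 5.72 and 5.69 and the middle fractions 5, 6 and 7 at 3.32, 3.34 and 3.30, so the 2 sides mirrored each other and no mirror pair differed by more than 0.21. Plxnd1 rose by 0.52 log2 units per fraction of distance from fraction 6 (SE 0.034, adjusted p = 2.05e-05), and its other probe by 0.54 (SE 0.043, adjusted p = 5.59e-05). The mean of the 4 outer fractions was 4.09 times that of the middle fraction and its 2 neighbours, with equal weight to each distance. The call held with the slide as a block (0.53, adjusted p = 0.0034), within the slide of fractions 2 to 9 (0.52, adjusted p = 0.0049) and without each fraction in turn.

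Markers of other cells moved with Plxnd1 in some planes. All 7 of the endothelium list (Pecam1, Cldn5, Cdh5, Tek, Kdr, Flt1 and Emcn) were well above background on all arrays, and their summed linear level ran from 31.6 in sagittal fraction 7 to 52.3 in fraction 1 and from 30.4 to 62.3 over the coronal fractions. Over the 34 fractions, after the mean of each series was removed, the r between Plxnd1 and the mean of that list was 0.23, being 0.07 in the coronal, -0.64 in the horizontal and 0.80 in the sagittal plane. The r with the cerebral cortex list was 0.65, being 0.85 in the coronal, -0.84 in the horizontal and 0.93 in the sagittal plane. Over the 34 fractions it was 0.69 with the striatum list and 0.80 with the neuron list, neither split by plane. By the mean of its markers the striatum list was highest in coronal fraction 11, horizontal fraction 6 and sagittal fraction 2. Plxnd1 was highest in fractions 13, 6 and 1 of those planes. These correlations are descriptions: all genes of a fraction share its array and depth, and neighbouring fractions come from the same brain. The part of endothelium, cortex, striatum or neurons in the Plxnd1 result was not tested.

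Along the sagittal plane 8 of the 31 genes changed with distance from fraction 6, which was taken as the middle, where 28.3% of all probes did, 18.3% rising and 9.97% falling. Beside Plxnd1, the ligands Sema3a, Sema3d, Sema4f and Sema6b rose away from the middle, and Sema4a, Sema5a and Plxnb3 fell. With the slide as a block 2 of these calls held, Plxnd1 and Sema3a. Of all 34186 probes, 2142 were called in that setting, against 9666 without the block. With each array scaled to its median, 15 members were called (12 rising and 3 falling), where 36.2% of all probes were. No member differed between the 2 sides of the brain, at 0 of 34186 probes called by limma, with 5 members and 9.54% of all probes under an unadjusted p of 0.05.

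Sema3a, the class 3 ligand that collapses growth cones through Nrp1, had sagittal values from 0.22 to 1.17 with a median of 0.81. Fractions 1, 2, 9 and 11 were highest, all at or above 0.96, and fractions 4 to 7 were all at or below 0.42. It rose by 0.18 per fraction of distance (SE 0.030, adjusted p = 0.0018), and its other probe by 0.21 (adjusted p = 0.00017). Sema4f gave 0.15 (SE 0.029, adjusted p = 0.0034), with fractions 1 and 11 at 1.60 and 1.38 and fractions 3 to 9 between 0.76 and 0.94, and Sema6b gave 0.10 (SE 0.025, adjusted p = 0.0115). Without the pooled end fractions 1 and 11, 4 of the 8 genes were not called: Sema4f (adjusted p = 0.071), Sema6b (0.179), Plxnb3 (0.069) and Sema3d (0.207). Of all 34186 probes, 3434 were called without those fractions, against 9666 with them. In the same setting Sema7a (0.22 per fraction of distance, adjusted p = 0.0029) and Plxna2 (0.16, adjusted p = 0.0147) were added. Both were also called within the slide of fractions 2 to 9 (adjusted p = 0.0043 and 0.034).

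Sema4a, a ligand that can also use Plxnd1, ran the other way. Its sagittal values had a lowest of 2.58, a median of 2.92 and a highest of 3.26, with fractions 4 to 8 all at or above 3.10 and fractions 1, 2, 10 and 11 all at or below 2.65. It fell by 0.14 per fraction of distance (SE 0.022, adjusted p = 0.0015). Over the sagittal fractions its r with Plxnd1 was -0.92, over the coronal ones -0.21 and over the horizontal ones 0.80, so the sign differed between planes. Sema4b, whose course was the most like Sema4a of all members (r 0.91 over 34 fractions, and at least 0.87 in each plane), gave -0.07 with an adjusted p of 0.054.

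Sema3e, which binds Plxnd1 directly, was lowest in the coronal fraction and the outermost sagittal fractions where Plxnd1 was highest. Its coronal values ran from -2.92 to -0.94 with a median of -1.84, with highs in fraction 5, at -1.08, and fraction 9, at -0.94, and a low of -2.92 in fraction 13, the highest fraction of Plxnd1. In the horizontal plane it ran from -2.77 in fraction 1 to -1.14 in fraction 5 and back to -2.29 in fraction 8 (curve, adjusted p = 0.024). The coronal curve was called as well (adjusted p = 0.015). In sagittal fractions 1 and 11 it was lowest, at -2.31 and -2.29, with the other fractions between -1.56 and -1.06, and its change with distance was not called (adjusted p = 0.21). The horizontal curve was lost without any 1 of fractions 3 to 8. The r of the pair was -0.29 over 34 fractions, being -0.40, 0.63 and -0.49 in the coronal, horizontal and sagittal planes, and that of Sema3c with Plxnd1 was -0.01, being 0.23, -0.17 and -0.63.

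**Figure D2:**
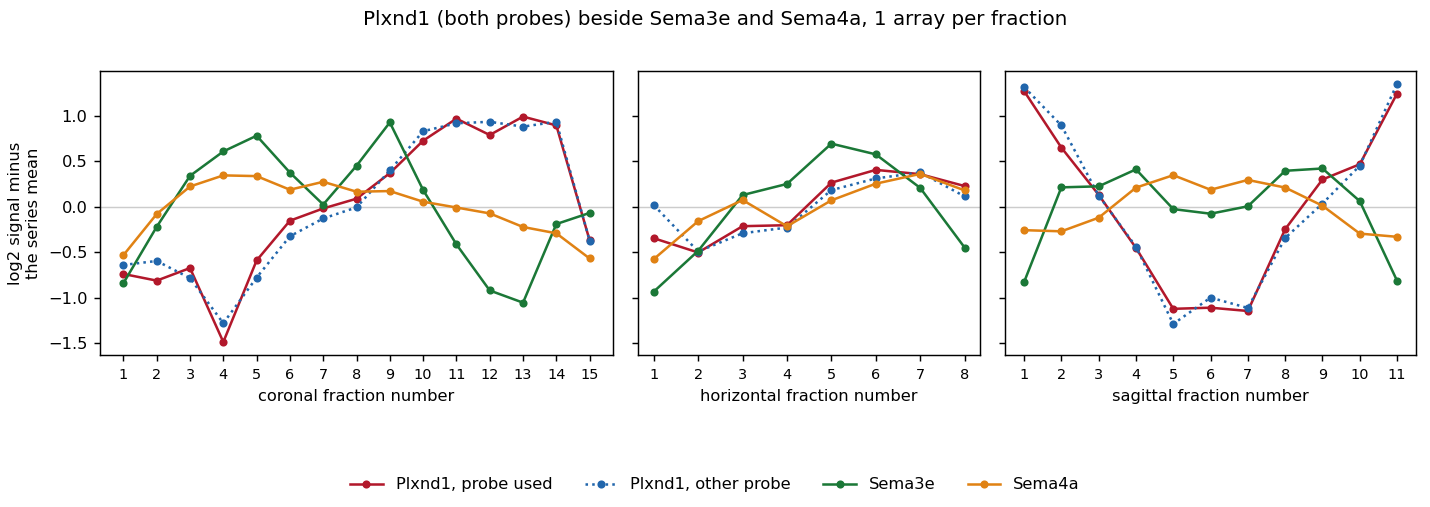
Log2 signal of both Plxnd1 probes, Sema3e and Sema4a minus the series mean (vertical axis) against fraction number in the coronal, horizontal and sagittal series, 1 array per point. Both Plxnd1 probes run together, low in the middle of the sagittal series and high at its ends, where Sema3e and Sema4a are low.

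Plxnb3, the receptor of Sema5a, had coronal values with a lowest of -3.58, a median of -2.73 and a highest of -0.73. Fractions 2 to 5 were highest, at -0.81, -0.73, -1.14 and -1.35, and all fractions from 7 on were at or below -2.64. It fell by 0.18 log2 units per coronal fraction (SE 0.031, adjusted p = 0.00071). In the sagittal plane it ran from -2.94 to -1.15 with a median of -1.87, highest in fraction 6 and lowest in fractions 1 and 2. It fell by 0.30 per fraction of distance (SE 0.055, adjusted p = 0.0027). With the slide as a block neither slope was called, while the coronal curve was (adjusted p = 0.0048).

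Oligodendrocyte markers moved with Plxnb3. Of the 5 used (Mbp, Mog, Mag, Cnp and Mobp), Mobp was well above background on 25 of 34 arrays and the others on all 34. Their summed linear level ran from 8.82 in coronal fraction 14 to 29.7 in fraction 3, from 10.8 to 22.7 over the horizontal fractions and from 9.74 to 18.9 over the sagittal ones. The mean of the 5 log2 deviations was likewise highest in coronal fraction 3. The r of Plxnb3 with that mean was 0.93 over 34 fractions, with 0.97, 0.89 and 0.91 in the coronal, horizontal and sagittal planes. Astrocyte and radial glia markers (r 0.89) and hindbrain markers (r 0.86) moved with Plxnb3 as well, and cortex markers ran against it (r -0.83). The part of any of these cells or regions in the Plxnb3 result was not tested.

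Sema5a, a ligand with repulsive and attractive effects, had sagittal values with a lowest of 1.18, a median of 1.85 and a highest of 2.07. Fractions 4 to 8 were all at or above 1.97 and fractions 1, 2, 10 and 11 all at or below 1.42. It fell by 0.19 per fraction of distance (SE 0.029, adjusted p = 0.0012), and its horizontal curve was called (adjusted p = 0.042), with 0.60 and 0.54 in fractions 1 and 2 and 2.28 in fraction 7. Its r with Plxnb3 was 0.69 over 34 fractions, with 0.73, 0.76 and 0.89 in the coronal, horizontal and sagittal planes. Sema4d, a ligand made by oligodendrocytes among other cells, fell by 0.05 per coronal fraction (SE 0.012, adjusted p = 0.0085), from 0.39 in fraction 3 to -0.79 in fraction 15. Its r was 0.80 with Plxnb3, 0.72 with the oligodendrocyte list and 0.81 with a list of oligodendrocyte precursor markers (Pdgfra, Cspg4, Olig1 and Olig2). The part of those cells in the Sema4d result was not tested.

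**Figure D3:**
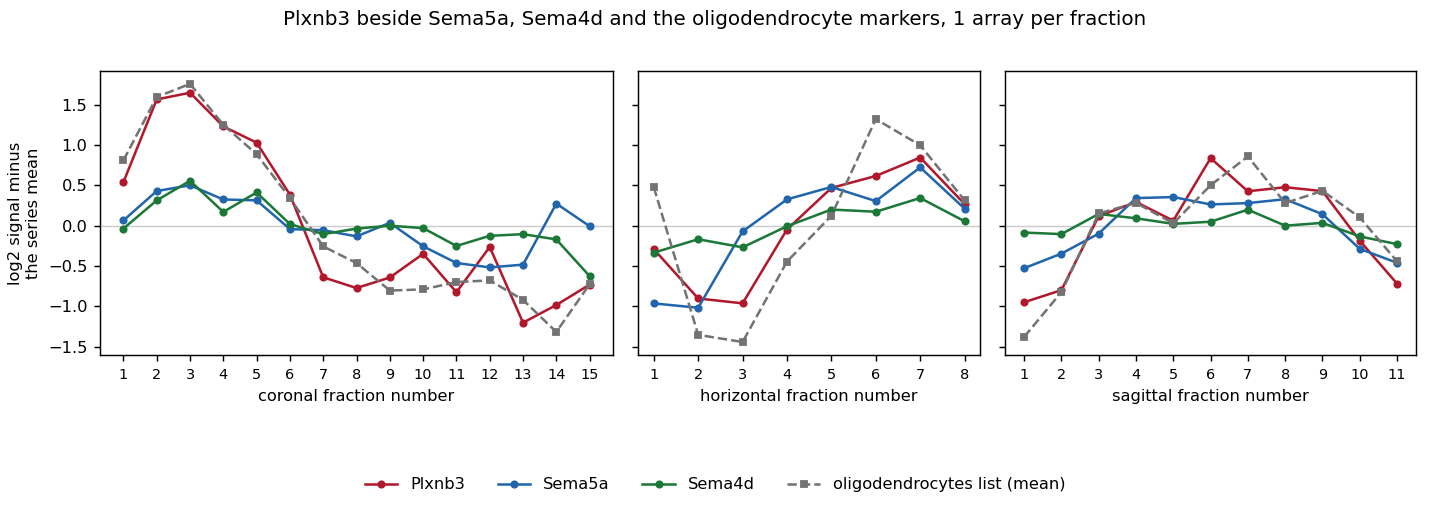
Log2 signal of Plxnb3, Sema5a and Sema4d minus the series mean (vertical axis) against fraction number in the coronal, horizontal and sagittal series, 1 array per point. The dashed grey line is the mean deviation of the 5 oligodendrocyte markers, which runs with Plxnb3 at r 0.97, 0.89 and 0.91 in the 3 planes.

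Along the horizontal plane 3 of the 31 genes had a slope, where 1.76% of all probes did (0.959% rising and 0.804% falling), and 5 had a curve, where 3.29% did. Plxnc1 and Sema5b rose with fraction number, and Sema7a fell. The curves called were those of Sema3e, Sema5a, Sema7a, Plxna2 and Nrp2. With 8 arrays these calls lay close to the threshold. Of the 3 slopes, Plxnc1 was lost without any one of the fractions and Sema5b and Sema7a without any of 7. With no filter on dim probes 0 members were called, where 175 of all 55681 probes had a slope. With the place on the slide as a block 0 of all probes had a slope called, so that setting shows nothing particular to the members.

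Sema7a, a membrane-anchored ligand, and Plxnc1, its plexin, had a negative r in all 3 planes. Sema7a ran from 3.06 to 4.83 in the horizontal fractions with a median of 4.13, highest in fraction 2 and lowest in fraction 8. Plxnc1 ran from 1.61 in fraction 2 to 3.26 in fraction 7 with a median of 2.59. Sema7a fell by 0.20 per fraction (SE 0.0395, adjusted p = 0.047) and Plxnc1 rose by 0.19 (SE 0.0375, adjusted p = 0.047), with 0.19 also from the other Plxnc1 probe (adjusted p = 0.023). In coronal fractions 4 to 7 Sema7a was low, at 3.37 to 3.47, while Plxnc1 was at 2.54 to 2.79. Fraction 15 went the other way, since both genes had their lowest coronal value there, at 3.29 and 1.83. The r of the pair was -0.69 over 34 fractions, with -0.55, -0.85 and -0.69 in the coronal, horizontal and sagittal planes. Cerebral cortex markers ran with Sema7a (r 0.97) and against Plxnc1 (r -0.85) in the horizontal plane. These r were 0.58 and -0.42 in the sagittal plane and 0.06 and -0.05 in the coronal plane. The part of cortex in the result was not tested.

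Sema3c, a ligand of both neuropilins, and Nrp1 rose and fell together. Sema3c had coronal values with a lowest of -0.52, a median of 1.08 and a highest of 2.28, highest in fractions 8 to 10, at 2.11, 2.28 and 2.04, and lowest in fractions 1 and 2. Nrp1 ran from -1.75 in fraction 12 to 0.13 in fraction 6 with a median of -0.77. Both curves were called (adjusted p = 0.00013 and 0.022). The r of the pair was 0.69 over 34 fractions, with 0.74, 0.76 and 0.64 in the coronal, horizontal and sagittal planes, and both Sema3c probes ran together (r 0.94). This course was not particular to the pair, since over 34 fractions Sema3e had r 0.68 with Nrp1 and 0.65 with Sema3c. The r with the thalamus list was 0.54 for Sema3c and 0.55 for Nrp1, and the part of that region was not tested.

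**Figure D4:**
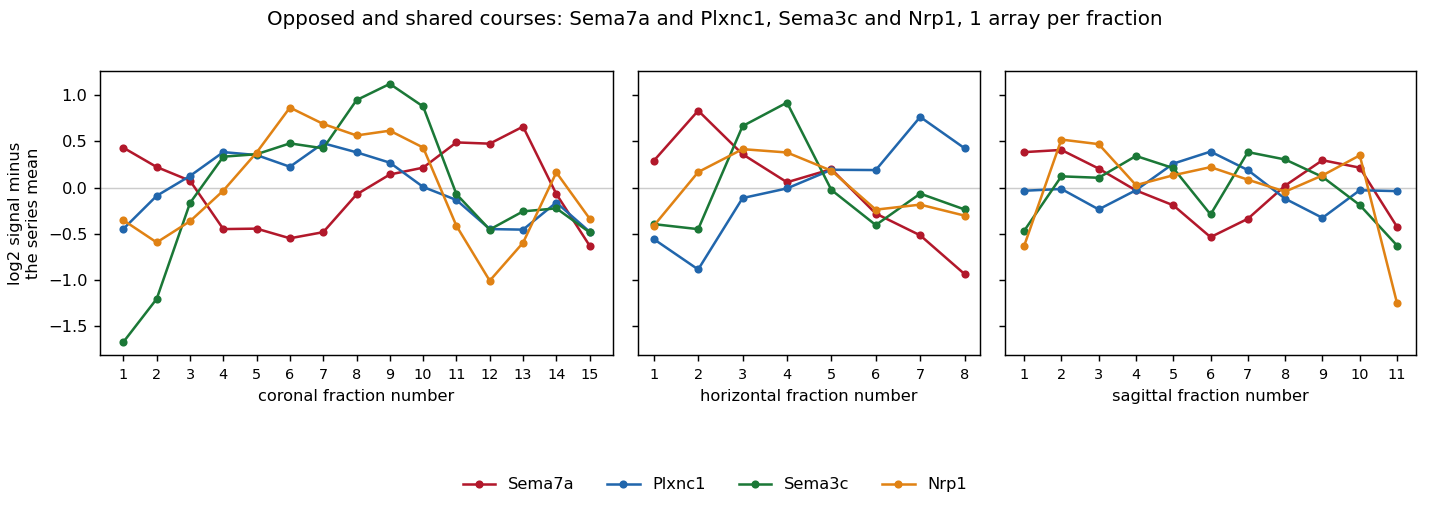
Log2 signal of Sema7a, Plxnc1, Sema3c and Nrp1 minus the series mean (vertical axis) against fraction number in the coronal, horizontal and sagittal series, 1 array per point. Sema7a and Plxnc1 run against each other (r -0.55, -0.85 and -0.69), and Sema3c and Nrp1 run together (r 0.74, 0.76 and 0.64).

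Nrp2, the co-receptor of Sema3f, Sema3c and Sema3b, had coronal values with a lowest of 2.38, a median of 4.34 and a highest of 4.54, with the lowest values in fractions 1, 2 and 15, at 2.38, 3.54 and 3.44, and all others at or above 3.99. In the horizontal plane it ran from 3.33 in fraction 2 to 5.17 and 5.27 in fractions 7 and 8. Both curves were called (adjusted p = 0.00048 and 0.027), as they were with its other probe (adjusted p = 0.017 and 0.049). The horizontal curve of the chosen probe was lost without any 1 of fractions 2 to 8. Its ligand Sema3f, which ran from 3.01 in fraction 8 to 3.84 in fraction 2, was opposed to it there (r -0.73) but not in the coronal plane (r 0.29).

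Over the 36 ligand, receptor and co-receptor pairs known to bind or to act together, the median r was 0.01. In 4 pairs r was at least 0.5: Sema6b with Plxna4 (0.72), Sema5a with Plxnb3 (0.69), Sema3c with Nrp1 (0.69) and Sema3f with Plxna3 (0.58), each of them positive in every plane. In 1 pair, Sema7a with Plxnc1, it was at most -0.5. As a share this was 11.1% of the pairs at or above 0.5, against 13.3% of all 465 pairs among the 31 genes. Without the 7 arrays in column 4 of the slides, on which the Plxna1 probe stood apart, the count was 8 of 36 (22.2%), against 15.3% of all 465, a setting chosen after seeing the data. The pairs added were Sema6d with Plxna1 (0.12 before, 0.68 then), Nrp2 with Plxna3 (0.65), Sema3c with Nrp2 (0.56) and Sema3a with Plxna2 (0.50), and Sema5a with Plxna1 (-0.53) joined Sema7a with Plxnc1 at or below -0.5. Of the 36 pairs, 8 were positive in all 3 planes and 2 negative in all 3. The highest fraction of both partners was the same in 2 pairs in the coronal, 5 in the horizontal and 3 in the sagittal plane. Among these were Sema3a with Plxna1 in the coronal and horizontal planes, Nrp2 with Plxna1 in the horizontal and Sema5a with Plxna1 in the sagittal. Each of those Plxna1 peaks is on an array of column 4. The share over all 465 pairs is not given for peaks.

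Sema6b and Sema6c rose towards high coronal numbers. Sema6b, a repulsive ligand of Plxna4, ran from 1.51 in coronal fraction 1 to 2.75 in fraction 12 with a median of 1.95, and rose by 0.05 per fraction (SE 0.016, adjusted p = 0.0305), a call that was lost without fraction 1, 3, 4, 12 or 13. Sema6c ran from 0.75 in fraction 4 to 1.86 in fraction 12 with a median of 1.08 and rose by 0.06 (SE 0.013, adjusted p = 0.0040). The r of Sema6b was 0.78 with Sema6c and 0.79 with Sema4g, and that of Plxna4 was 0.79 with Sema4g and 0.78 with Plxna3. The r with the neuron list was 0.85 for Sema6b, 0.69 for Sema6c, 0.76 for Plxna3 and 0.67 for Plxna4, and the part of neurons in these courses was not tested.

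Sema5b, a ligand known from the retina, ran from 0.06 in coronal fraction 1 to 1.34 in fraction 14 with a median of 0.68. It rose by 0.05 per coronal fraction (SE 0.015, adjusted p = 0.012) and by 0.15 per horizontal fraction (SE 0.029, adjusted p = 0.042), where it went from 0.14 and -0.17 in fractions 1 and 2 to 0.93 and 0.90 in fractions 7 and 8. Within coronal fractions 1 to 8 its slope was -0.01, so the coronal rise lay in the higher fractions, which are on another slide. Its r with the olfactory bulb list was 0.66.

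Sema3d followed markers of the meninges. Its coronal values ran from -3.54 to -1.64 with a median of -2.87, highest in the end fractions 1 and 15, at -1.64 and -2.14. In the sagittal plane it rose by 0.13 per fraction of distance (SE 0.045, adjusted p = 0.046), a call lost without any 1 of 10 fractions. All 6 markers of meninges and fibroblasts (Col1a1, Col1a2, Col3a1, Dcn, Lum and Slc6a13) were well above background on all arrays, with a summed linear level from 45.9 to 230.8 over the coronal fractions, highest in fraction 15. The r of Sema3d with the mean of this list was 0.82, with 0.84, 0.77 and 0.85 in the 3 planes. The part of those cells in the Sema3d result was not tested.

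Sema3b, whose coronal slope was -0.07 (SE 0.019, adjusted p = 0.010), was highest in fraction 3, at 1.32, and lowest in fraction 13, at -0.61. Its r was 0.70 with the astrocyte and radial glia list and 0.64 with the oligodendrocyte list. Plxnb2, a receptor of Sema4c and Sema4d, had a U-shaped coronal course (adjusted p = 5.08e-05), at 5.08 in fraction 1, 3.79 in fraction 8 and 4.55 in fraction 14. Sema6a, a membrane-bound ligand of Plxna2 and Plxna4, had a similar one (adjusted p = 0.0011), at 2.25 in fraction 2, 1.00 in fraction 11 and 2.03 in fraction 14.

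Plxna1, a receptor shared by several class 3 and class 6 semaphorins, moved with the place of the array on its slide. Its probe had values from -1.17 to 0.79, and the 7 arrays in column 4 of the slides had values from -0.09 to 0.79 while the 27 others ran from -1.17 to -0.33. The groups did not overlap, whichever plane an array belonged to. In a fit over 34 arrays with the series as a block, added after these values were seen, Plxna1 was 1.36 higher in column 4 (SE 0.091, adjusted p = 6.29e-13), whereas 2.43% of all probes were called and 0 of the other 30 members was. Its peaks in coronal fraction 4, horizontal fraction 8 and sagittal fraction 5 are all arrays of that column, and no slope or curve of Plxna1 was called.

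**Figure D5:**
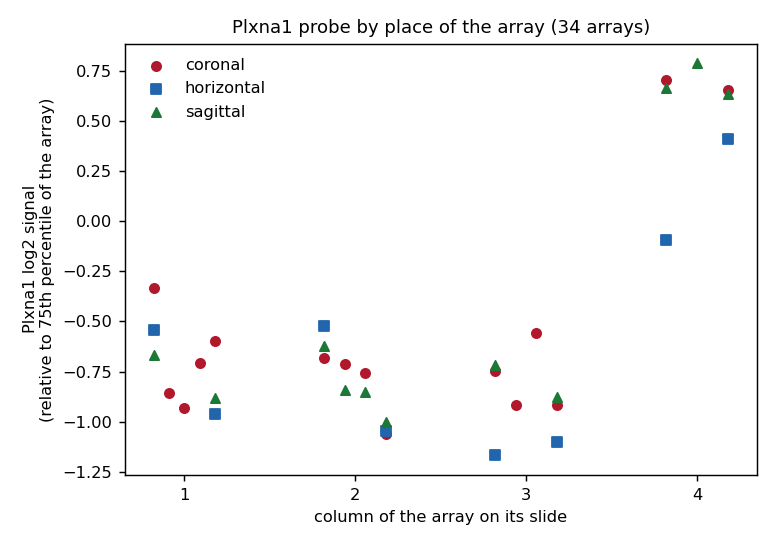
Log2 signal of the Plxna1 probe (vertical axis, relative to the 75th percentile of the array) on the 34 arrays by the column of the array on its slide (horizontal axis), with coronal, horizontal and sagittal fractions as circles, squares and triangles. The 7 arrays of column 4 lie between -0.09 and 0.79, above all others.

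No slope or curve was called in 8 of the 31 genes: Plxna1, Plxna4, Plxnb1, Sema3f, Sema3g, Sema4c, Sema4g and Sema6d. Plxnb1, the receptor of Sema4d, varied least in the sagittal plane, between 0.52 and 0.72. Genes called in 1 plane numbered 10, and in 2 planes 12. Sema5a alone was called in all 3, though its horizontal curve was lost without any one of the fractions. The shares of all probes called in as many planes are not given. Single tests already called many probes, 60.4% in the coronal curve and 28.3% in the sagittal distance test. Over 34 fractions both probes of a gene gave r of at least 0.66 in 7 of the 8 genes that had them. The exception was Sema6d (r -0.11), whose other probe fell by 0.07 per coronal fraction (SE 0.015, adjusted p = 0.0038) while the chosen one was not called. Within single planes r was lower for some of the 7. It was 0.40 for Sema3a and 0.57 for Plxnc1 in the coronal plane. For Plxna4 it was 0.45 in the horizontal and 0.24 in the sagittal plane, and for Sema5b 0.58 in the sagittal plane. In the sagittal plane the other probes of Sema3c (-0.14, adjusted p = 0.0282) and Plxnc1 (-0.15, adjusted p = 0.00951) fell with distance, while the chosen ones were not called.

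Some members lie near each other on a chromosome. Sema3d, Sema3a, Sema3e and Sema3c follow each other on chromosome 5 in the RefSeq annotation. Sema3d and Sema3a, with 0 protein-coding genes between them, had r 0.03, Sema3a and Sema3e, with 3 between, 0.24, and Sema3e and Sema3c, with 15 between, 0.65. Sema3b and Sema3f on chromosome 9, with 3 between, had r -0.21, and Plxnb3 and Plxna3 on chromosome X, with 23 between, -0.56.

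Of 39 tested genes that act beside or downstream of plexins, 11 had a coronal slope (8 higher and 3 lower), 31 a coronal curve, 2 a horizontal slope and 15 a sagittal change with distance (11 higher and 4 lower). As shares these were 28.2%, 79.5%, 5.13% and 38.5%, against 28.3%, 60.4%, 1.76% and 28.3% of all probes. The smallest adjusted p in the coronal curve belonged to Plxdc1 (1.61e-05), a plexin-domain protein of vessels that fell by 0.13 per coronal fraction, Mical1 (2.87e-05), an enzyme that takes actin filaments apart and rose by 0.08, and Rras (4.42e-05), a small GTPase switched off by plexins, whose slope was not called. Of 39 tested Eph, ephrin, Slit, Robo, netrin and related genes, 16 had a coronal slope, 33 a coronal curve, 1 a horizontal slope and 18 a sagittal change with distance, or 41.0%, 84.6%, 2.56% and 46.2%. The 31 semaphorin, plexin and neuropilin genes had 7, 22, 3 and 8, and the lists were not tested against each other.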

How the data were processed

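Per the labels and file headers, each fraction's RNA was labelled with Cy3, hybridised to a mouse expression array and scanned once. The deposited scanner files hold intensity values from Feature Extraction 10.10.1.1, and the processed signal, background-corrected by that software, was used. The deposited table holds log2 values of the same arrays: 99.9% lay within 0.02 of log2 processed signal less 1 constant per array.

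Spots of a probe were averaged after control spots were left out, and log2 values were set relative to each array's 75th percentile. A probe was tested if every series had a fraction where it was well above background (34186 of 55681). limma 3.58.1 was fitted to each series alone, with Benjamini-Hochberg adjustment over all probes and a threshold of 0.05: a slope on fraction number, a curve (spline with 3 degrees of freedom in the coronal plane, polynomial of degree 2 in the horizontal), and distance and side from sagittal fraction 6. The depth of an array is its signal over background. As fractions are single arrays of 1 mouse per plane, p-values say nothing of other mice.

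Each gene was given by the probe well above background on most arrays, ties going to the higher median. Members and lists were chosen with earlier results of these data known. A marker of 1 list is not reported here, and that list was computed without it. Genes were named by role and by the smallest adjusted p; in the pathway list the 3 smallest were named. On simulated data with 200 changed probes among 34186, those recovered at a log2 range of 2 numbered 179 for the coronal slope, 158 for the coronal curve, 140 for the horizontal slope, 0 for the horizontal curve (132 at a range of 4), 166 for the sagittal distance and 175 for the side. Alternatives covered scaling, background correction (normexp), filters, limma-trend, slide and place as blocks, and leaving out fractions.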

Additional observations from a re-analysis of the deposited data

Results flagged for a closer look

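Of 62 sets of values searched, 2 held a value far from the rest, and chance gives about 1 in 20. Sema3b in horizontal fraction 8 stood at 1.00, while the other horizontal fractions lay between -0.26 and 0.33. For Plxnb1, sagittal fraction 7 exceeded its mirror fraction 5 by 0.20, while the other mirror differences lay between -0.06 and 0.01.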

How the results depend on the processing

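No paired analysis was possible because fraction numbers are positions in different planes of different mice. With the slide as a block the coronal slope calls went from 7 to 0 members (251 of 9677 probes) and the curves from 22 to 13 (12532 of 20642). Within fractions 1 to 8 there were 7 member slopes (Sema3c, Sema6a, Plxna3, Plxnb2, Plxnc1, Nrp1 and Nrp2, none of them among the 7 called over all fractions) and 6503 probes, and within fractions 9 to 15 there were 1 and 2099, without fractions 1 and 15 there were 15 members, and with no filter 16605 probes. Slopes turned within fractions 9 to 15 for Sema3c (-0.26), Sema6b (-0.0398) and Plxnd1 (-0.0663), and within fractions 1 to 8 for Sema5b (-0.00688), Plxnc1 (0.11) and Nrp1 (0.20). Leaving out 1 fraction gave 6 to 15 coronal slopes of members.

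The horizontal slopes, 3 members and 603 probes, became 6 members with normexp, 5 with limma-trend and 0 with no filter, with place as a block or within 1 slide. Probes numbered 175 with no filter, 962 with the slide as a block, 0 with place and 330 within 1 slide. Leaving out 1 fraction gave 0 to 4 members and 20 to 528 probes. The horizontal curves, 5 members and 1124 probes, became 3 with median scaling, 11 with normexp (2601 probes), 0 with no filter (43), 9 with probes detected on all 34 arrays (1967) and 10 with limma-trend (2392). Leaving out 1 fraction gave 0 to 4 members and 1 to 873 probes.

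The sagittal distance calls, 8 members and 9666 probes, became 15 members with median scaling (12385 probes), 2 with the slide as a block (2142 probes) and 4 within fractions 2 to 9 (1950). Probes numbered 15140 with normexp and 3434 without fractions 1 and 11. Plxnd1, Plxnb3, Sema3a, Sema4a, Sema4f, Sema5a and Sema6b kept their sagittal call in all 11 fits without 1 fraction. Sema3d kept it in 1 of the 11. Without the arrays of column 4, a setting chosen after seeing the data, 8 pairs had r of at least 0.5 and 2 of at most -0.5. The causes of these changes were not tested, beyond the smaller number of fractions where some were left out.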
